A study of Homo sapiens with 6 samples.

Results

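Genes of glucose and lactate transport, glycolysis, glycogen handling and pyruvate entry into mitochondria were followed in A498 cells. This line is from a human clear cell kidney carcinoma. Its libraries are labelled as knockdown of PTPRZ1, a receptor protein tyrosine phosphatase, or as control. The 33 genes are a chosen list of named enzymes and transporters. They were picked without a threshold on these values, but with earlier results of these data known. All 33 have a row among the 61860 genes of the deposited count table. The tested libraries are PTPRZ-Si, labelled as siRNA knockdown of PTPRZ1 (n = 3), and they are set against PTPRZ-nc, labelled as the knockdown's control by plasmid (n = 3). Both groups grew in MEM medium with fetal bovine serum and carry the same treatment label, transfection infection. Every difference below is therefore one between libraries that also differ in the plasmid or siRNA named, and these cannot be told apart. Whether a group's libraries are separate cultures is not stated, and p-values reflect the spread among these 6 libraries alone, which may be technical. In bulk RNA, fewer cells of a type and less RNA per cell cannot be told apart.

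As background, glycolysis splits glucose into pyruvate in the cytosol, and pyruvate is either reduced to lactate and exported or carried into mitochondria and made into acetyl-CoA. Glucose can also be stored as glycogen, which fills the cytoplasm of clear cell kidney cancer together with lipid. In this cancer, loss of VHL keeps the hypoxia-inducible factors (HIF) stable, and many glycolytic genes are known HIF targets.

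Total counts in genes were 14407846 to 21469746 in PTPRZ-Si libraries and 13726908 to 18609477 in PTPRZ-nc libraries. PTPRZ1 itself had 0 counts over all 6 libraries, so the knockdown could not be checked by its target, and directions rest on the labels. On the second principal component of all tested genes (18.4% of the variance), PTPRZ-nc replicate 2 stood apart at 25.9, against 0.749 to 4.2 in PTPRZ-Si and -18.6 and -13.7 in the other PTPRZ-nc libraries. All 8 markers listed for renal cancer cells were detected well enough to be tested, with summed levels of 3170 to 3300 CPM in PTPRZ-Si and 3110 to 3160 CPM in PTPRZ-nc (CPM is the usual count scaled to library size, here with TMM factors between libraries). Markers of leukocytes summed to at most 0.14 CPM in PTPRZ-Si and 0.35 CPM in PTPRZ-nc, those of endothelium to 1.36 to 1.6 and 0.935 to 1.01 CPM, and those of red cells to 0 in every library. Fibroblast markers summed to 21.6 to 23.6 CPM in PTPRZ-Si and 31.4 to 41.7 CPM in PTPRZ-nc. Nearly all of this was COL1A1, which averaged 22.02 CPM in PTPRZ-Si and 35.08 CPM in PTPRZ-nc. Of the 5 fibroblast markers listed, only COL1A1 had enough counts to be tested. PTPRC, CD3E, CDH5, LUM, HBB and HBA1 were at 0 in every library, and a part of other cell types in the results was not tested.

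Of the 33 genes 32 had enough counts to be tested, and the set split in both directions. Of these 32 genes 9 rose in PTPRZ-Si (28.1%), 5 fell (15.6%) and 18 did not pass the quasi-likelihood test of edgeR at an adjusted p (Benjamini-Hochberg, over all genes) of 0.05 or less. With library totals and no TMM factor as the scaling, 8 rose and 8 fell. Across all 15476 tested genes 27.4% passed, 14.0% higher and 13.4% lower. The listed genes are abundant, with a median level of 129.7 CPM against 21.45 CPM for all tested genes, and 35.4% of the tested genes that averaged 5 CPM or more passed. The share of listed genes that passed, 43.8%, was not tested against these shares. The median log2 fold change of the 32 genes was 0.02, against 0.00 for all tested genes, and the changes that passed were small, with a median of 1.21-fold against 1.26-fold. Groups did not overlap in 19 of the 32 genes (59.4%), against 40.8% of all tested genes. This difference was not tested either, and the 40.8% is not limited to genes of similar abundance. Of the 14 genes that passed, 8 passed with the same direction under all 12 other settings and single-library omissions tried.

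**Figure D1:**
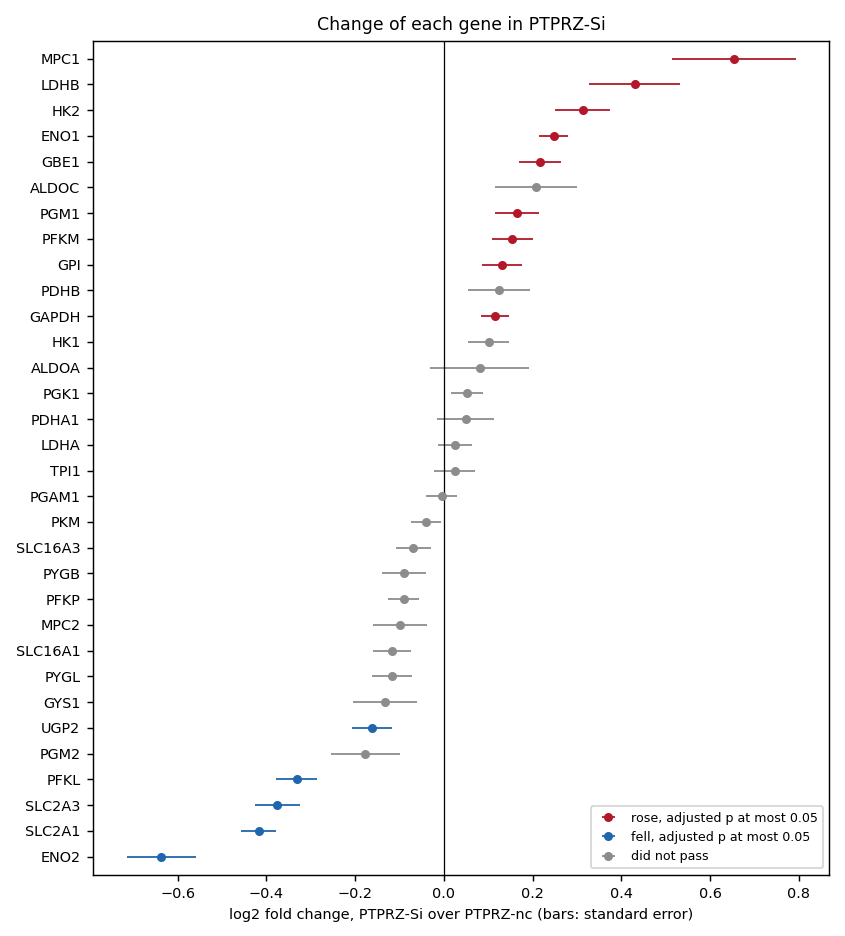
Log2 fold change of PTPRZ-Si over PTPRZ-nc (horizontal axis) for the 32 tested genes, ordered by value, with standard errors as bars and 3 libraries per group. ENO2 lies lowest at -0.64 and MPC1 highest at 0.65, and 18 genes (grey) did not pass.

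In transport, the listed glucose carriers SLC2A1 and SLC2A3 were lower in PTPRZ-Si and the listed lactate carriers SLC16A1 and SLC16A3 did not pass. Of 15 tested genes of other sugar and monocarboxylate transport, given at the end, 5 rose, 1 fell and 9 did not pass. SLC2A1, which encodes GLUT1, the main glucose carrier of most proliferating cells (GRCh38 chromosome 1 from 42925375 to 42959176, minus strand), had 609.5, 592.3 and 597.1 CPM in the PTPRZ-Si libraries, against 844.8, 765.5 and 791 CPM in the PTPRZ-nc libraries. Every PTPRZ-Si library lay below every PTPRZ-nc library, a log2 fold change of -0.42 with an SE of 0.0396 (edgeR adjusted p = 5.69e-07). SLC2A3, which encodes the high-affinity carrier GLUT3, had 70.06, 70.42 and 66.48 CPM in PTPRZ-Si, against 88.84, 90.25 and 89.35 CPM in PTPRZ-nc. The groups were again apart, and the log2 fold change was -0.38 (SE 0.0506, edgeR adjusted p = 2.78e-05). Together the 4 transporters held 0.1671 ± 0.00232% of all counts in PTPRZ-Si and 0.1963 ± 0.00637% in PTPRZ-nc (SD, n = 3 each).

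SLC16A1, which encodes the lactate carrier MCT1, averaged 215.9 ± 4.44 CPM in PTPRZ-Si and 234.1 ± 7.97 CPM in PTPRZ-nc (SD, n = 3 each). Its groups did not overlap but it narrowly missed the threshold, with a log2 fold change of -0.12 with an SE of 0.0426 (edgeR adjusted p = 0.0517). It passed without PTPRZ-nc replicate 1 (edgeR adjusted p = 0.0419), in limma-voom (adjusted p = 0.0476), without a TMM factor (edgeR adjusted p = 0.0319) and, at the threshold, with DESeq2's size factors (edgeR adjusted p = 0.05). SLC16A3, which encodes the lactate exporter MCT4, averaged 796.1 ± 22.1 CPM in PTPRZ-Si and 835.1 ± 36.3 CPM in PTPRZ-nc and did not pass (-0.07, SE 0.0387). In GENCODE 29 its exons share 482 bases with CSNK1D on the opposite strand, and the counting set no strand option although the library kit keeps strand.

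In the upper part of glycolysis, where glucose is phosphorylated and split, 3 of 9 genes rose, 1 fell and 5 did not pass. HK2, the inducible hexokinase (chromosome 2 from 74833981 to 74893359, plus strand), had 67.27, 63.99 and 66.62 CPM in PTPRZ-Si and 50.88, 57.8 and 50.94 CPM in PTPRZ-nc. All PTPRZ-Si libraries were higher, with a log2 fold change of 0.31 with an SE of 0.0622 (edgeR adjusted p = 0.0011). HK1, the widely expressed hexokinase, averaged 276.1 ± 4.42 CPM in PTPRZ-Si and 257.8 ± 17.1 CPM in PTPRZ-nc (SD, n = 3 each), with overlapping groups and a log2 fold change of 0.10 that did not pass (SE 0.0471, edgeR adjusted p = 0.129). It passed only when PTPRZ-nc replicate 2 was left out (0.15, edgeR adjusted p = 0.00421). GPI, which converts glucose 6-phosphate to fructose 6-phosphate, had 518.1, 464.4 and 494 CPM in PTPRZ-Si and 465.5, 429.4 and 453.3 CPM in PTPRZ-nc. Its groups overlapped slightly, the log2 fold change of 0.13 passed by little (SE 0.0449, edgeR adjusted p = 0.0394), and it did not pass without PTPRZ-Si replicate 1 or 3 or PTPRZ-nc replicate 2 or 3 (edgeR adjusted p = 0.255, 0.124, 0.0636 and 0.0683) or without a TMM factor (edgeR adjusted p = 0.0618).

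Phosphofructokinase, the committed step of glycolysis, is built from subunits of liver, muscle and platelet type, and these moved in different directions. PFKL, the liver type (chromosome 21 from 44300051 to 44327376, plus strand), had 113.3, 114.3 and 119.4 CPM in PTPRZ-Si, below the 144.9, 150.2 and 142.1 CPM of PTPRZ-nc. This was a log2 fold change of -0.33 with an SE of 0.0464 (edgeR adjusted p = 4.1e-05). PFKM, the muscle type (chromosome 12 from 48105139 to 48146404, plus strand), had 157.1, 160.5 and 153 CPM in PTPRZ-Si, above the 141.3, 146.9 and 135 CPM of PTPRZ-nc. Its log2 fold change was 0.15 (SE 0.0467, edgeR adjusted p = 0.0202), and it did not pass without PTPRZ-Si replicate 1 or 2 or PTPRZ-nc replicate 1 or 3 (edgeR adjusted p = 0.0818, 0.0972, 0.0567 and 0.0894). In GENCODE 29 its exons share 628 bases with SENP1 on the opposite strand, 8.58% of their length. PFKP, the platelet type and the most abundant of the family per length, averaged 739.2 ± 11.6 CPM in PTPRZ-Si and 787.2 ± 19.5 CPM in PTPRZ-nc (SD, n = 3 each), which gave a log2 fold change of -0.09 that did not pass (SE 0.035, edgeR adjusted p = 0.065) except without PTPRZ-nc replicate 2 or 3 (edgeR adjusted p = 0.0383 and 0.0353) or without a TMM factor (edgeR adjusted p = 0.0353).

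The aldolases and the isomerase that follow did not pass. ALDOC, the brain-type aldolase, averaged 26.87 ± 2.58 CPM in PTPRZ-Si and 23.09 ± 2.29 CPM in PTPRZ-nc (log2 fold change 0.21, SE 0.0918), and TPI1, triose phosphate isomerase, 646.8 ± 20.9 and 636.4 ± 44.2 CPM (0.02, SE 0.0457; SD, n = 3 each). ALDOA, the aldolase of muscle and most other cells, had only 15.53 ± 0.85 CPM in PTPRZ-Si and 14.75 ± 2.29 CPM in PTPRZ-nc. Per kilobase of exon this ranked 32 of 33 in each group, at 3.965 ± 0.217 and 3.767 ± 0.585 CPM per kilobase. In GENCODE 29, 42.31% of its exon bases also belong to AC093512.2 on the same strand, a gene with 257 counts, and read pairs assigned to more than 1 gene are left out by the counting program's default. Whether this overlap sets the low ALDOA count was not tested, and the value is not shown to be the level of its mRNA.

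In the lower steps, which yield ATP and pyruvate, 2 of 6 genes rose, 1 fell and 3 did not pass. The enolases, which make phosphoenolpyruvate, moved in opposite directions. ENO1, the ubiquitous enolase (chromosome 1 from 8861000 to 8879250, minus strand), had 2544, 2505 and 2588 CPM in PTPRZ-Si and 2236, 2073 and 2123 CPM in PTPRZ-nc. All PTPRZ-Si libraries were higher, a log2 fold change of 0.25 with an SE of 0.0327 (edgeR adjusted p = 2.26e-05). ENO2, the neuronal enolase (chromosome 12 from 6913745 to 6923698, plus strand), had 20.08, 19.01 and 18.85 CPM in PTPRZ-Si and 28.8, 31.93 and 29.34 CPM in PTPRZ-nc. It was 1.55-fold lower with no overlap, a log2 fold change of -0.64 with an SE of 0.0784 (edgeR adjusted p = 1.07e-05), the lowest value among the 32 genes.

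GAPDH, the dehydrogenase that is often used as a reference gene, had 2565, 2579 and 2576 CPM in PTPRZ-Si and 2463, 2291 and 2376 CPM in PTPRZ-nc. It was higher in every PTPRZ-Si library by a small amount, a log2 fold change of 0.11 with an SE of 0.0314 (edgeR adjusted p = 0.0113), and did not pass without PTPRZ-Si replicate 1 or 3 (edgeR adjusted p = 0.0658 and 0.0556). GENCODE 29 names 62 GAPDH pseudogenes, which together had 584 counts against 263653 for GAPDH, and read pairs that fit several copies are left out by default. The kinase PGK1 averaged 670.4 ± 8.72 CPM in PTPRZ-Si and 646.6 ± 17.1 CPM in PTPRZ-nc (log2 fold change 0.05), the mutase PGAM1 687 ± 5.95 and 689.5 ± 13.6 CPM (-0.01), and PKM, the pyruvate kinase of most tissues, 3636 ± 35.7 and 3742 ± 195 CPM (-0.04; SD, n = 3 each). None of these 3 passed, with edgeR adjusted p = 0.311, 0.937 and 0.403. Counts per gene do not separate the PKM1 and PKM2 splice forms of PKM.

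The 15 glycolytic enzyme genes together held 1.26 ± 0.0111% of all counts in PTPRZ-Si and 1.216 ± 0.0208% in PTPRZ-nc (SD, n = 3 each). The lowest PTPRZ-Si library held 1.248% and the highest PTPRZ-nc library 1.234%, and most of this sum is GAPDH, ENO1 and PKM. Per kilobase of exon the order at the top was GAPDH, at 863.3 ± 2.36 CPM per kilobase in PTPRZ-Si and 797.3 ± 28.9 in PTPRZ-nc, followed by ENO1 (482.5 ± 7.83 and 406.4 ± 15.8) and PKM (424.3 ± 4.17 and 436.6 ± 22.7). By this measure ENO1 ranked above PKM in PTPRZ-Si and below it in PTPRZ-nc. This order depends on the length used, which counts all annotated exon bases of a gene. In CPM, PKM was above ENO1 in both groups, at 3636 against 2546 in PTPRZ-Si and 3742 against 2144 in PTPRZ-nc. PGAM1, LDHA and TPI1 took ranks 4, 5 and 6 in both groups. SLC2A1 ranked 9 in PTPRZ-Si and 7 in PTPRZ-nc.

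At the branch to lactate, LDHA and LDHB, the muscle and heart type subunits of lactate dehydrogenase, differed. LDHA averaged 1605 ± 53 CPM in PTPRZ-Si and 1578 ± 72.8 CPM in PTPRZ-nc (SD, n = 3 each), which gave a log2 fold change of 0.02 that did not pass (SE 0.0375, edgeR adjusted p = 0.677). LDHB (chromosome 12 from 21635342 to 21757857, minus strand) had 71.59, 72.77 and 69.42 CPM in PTPRZ-Si and 59.17, 39.46 and 58.84 CPM in PTPRZ-nc. The groups did not overlap, but PTPRZ-nc replicate 2 was far below the other controls. The log2 fold change was 0.43 (SE 0.102, edgeR adjusted p = 0.00441), and 0.27 without PTPRZ-nc replicate 2 (edgeR adjusted p = 0.000476). DESeq2 did not call LDHB (adjusted p = 0.0682), and 33.42% of its exon bases in GENCODE 29 also belong to AC010197.2 on the same strand.

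Pyruvate enters mitochondria through a carrier made of MPC1 and MPC2 and is then oxidized by the pyruvate dehydrogenase complex. MPC1 (chromosome 6 from 166364919 to 166383013, minus strand) had 12.06, 10.85 and 10.06 CPM in PTPRZ-Si, from 173, 226 and 215 counts. It had 8.294, 6.285 and 6.241 CPM in PTPRZ-nc, from 142, 86 and 117 counts. Every PTPRZ-Si library was higher, 1.57-fold on average, with a log2 fold change of 0.65 with an SE of 0.14 (edgeR adjusted p = 0.00207), the highest value among the 32 genes. MPC2, its partner, averaged 45.57 ± 1.22 CPM in PTPRZ-Si and 48.78 ± 1.57 CPM in PTPRZ-nc (SD, n = 3 each) and did not pass (-0.10, SE 0.061). A part of the MPC2 exons, 575 bases or 22.53% in GENCODE 29, also belongs to DCAF6 on the opposite strand. PDHA1 and PDHB, the subunits of the dehydrogenase component, did not pass, with log2 fold changes of 0.05 (SE 0.0643) and 0.12 (SE 0.0707).

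Among the glycogen genes 2 of 7 rose, 1 fell and 4 did not pass. GBE1, the branching enzyme (chromosome 3 from 81489699 to 81762161, minus strand), had 125.5, 125.8 and 121.8 CPM in PTPRZ-Si and 102.7, 110.4 and 107.8 CPM in PTPRZ-nc. It was higher in every PTPRZ-Si library, with a log2 fold change of 0.22 with an SE of 0.0475 (edgeR adjusted p = 0.00238). PGM1, which interconverts glucose 1-phosphate and glucose 6-phosphate, had 131.9, 135.4 and 140.5 CPM in PTPRZ-Si and 123.8, 125.4 and 115.1 CPM in PTPRZ-nc. The log2 fold change was 0.16 (SE 0.0491, edgeR adjusted p = 0.0188), and PGM1 did not pass without PTPRZ-Si replicate 2 or 3 or PTPRZ-nc replicate 3 (edgeR adjusted p = 0.0559, 0.112 and 0.0898). UGP2, which makes the UDP-glucose used for glycogen, had 110.1, 115.8 and 114.4 CPM in PTPRZ-Si and 125.2, 129.1 and 126.9 CPM in PTPRZ-nc. It was lower in every PTPRZ-Si library, a log2 fold change of -0.16 with an SE of 0.0458 (edgeR adjusted p = 0.0139), and did not pass without PTPRZ-Si replicate 1 (edgeR adjusted p = 0.0788).

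The synthase and the phosphorylases did not pass, and each had a log2 fold change below 0. GYS1, glycogen synthase, averaged 40.97 ± 1.66 CPM in PTPRZ-Si and 44.76 ± 3.97 CPM in PTPRZ-nc (SD, n = 3 each), which gave a log2 fold change of -0.13 (edgeR adjusted p = 0.191). PYGL, the liver phosphorylase, averaged 110.3 ± 1.91 CPM in PTPRZ-Si and 119.7 ± 1.51 CPM in PTPRZ-nc (-0.12, edgeR adjusted p = 0.0679), and PYGB, the brain form, 579.2 ± 8.06 and 616.6 ± 55.4 CPM (-0.09, edgeR adjusted p = 0.205). PGM2, which acts mainly on pentose phosphates, averaged 27.3 ± 2.17 CPM in PTPRZ-Si and 31.02 ± 1.38 CPM in PTPRZ-nc (-0.18, edgeR adjusted p = 0.104). GYS1 passed without PTPRZ-nc replicate 2 (edgeR adjusted p = 0.0229) and PYGB without PTPRZ-nc replicate 3 (edgeR adjusted p = 0.036). FBP1, the gluconeogenic fructose bisphosphatase that is often lost in clear cell kidney cancer, had 0 counts in each PTPRZ-Si library and 2, 0 and 1 counts in PTPRZ-nc replicates 1, 2 and 3. It was not tested. A count of 0 allows up to 3 counts, or 0.14 to 0.209 CPM in the PTPRZ-Si libraries (counting error only).

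**Figure D2:**
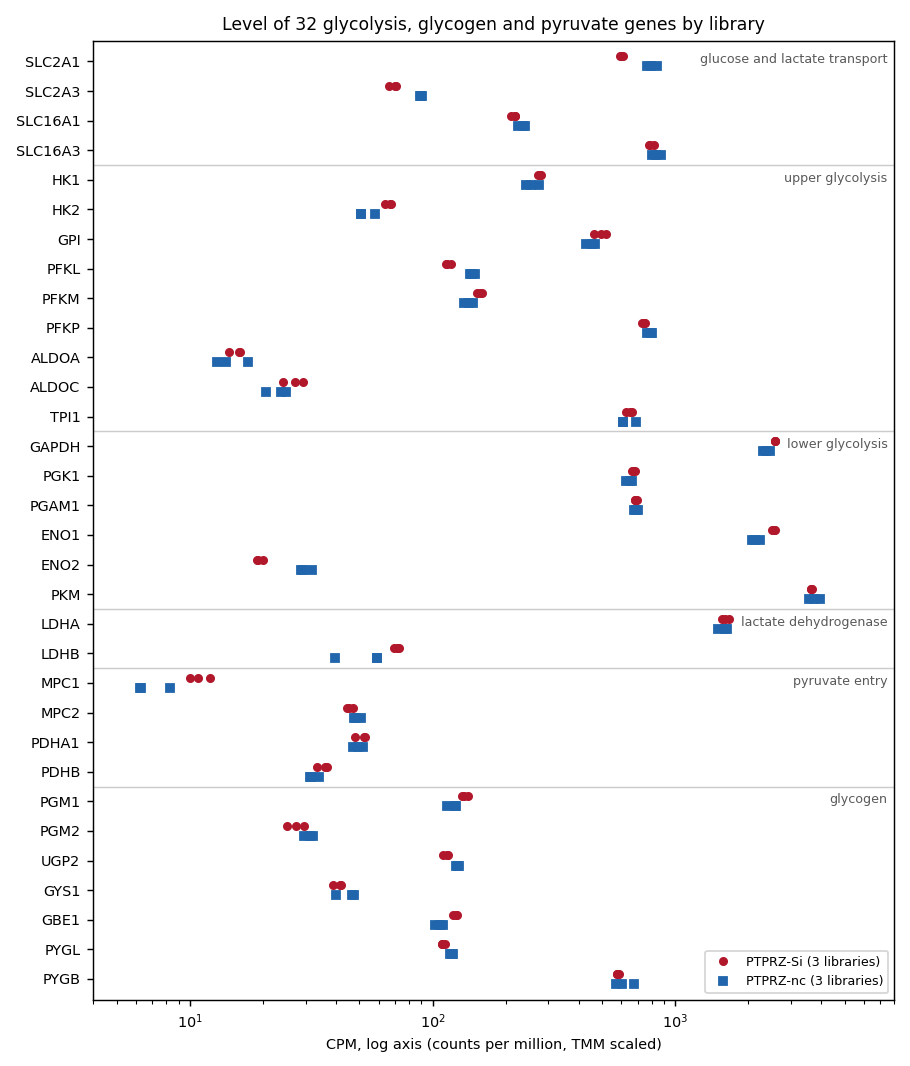
Level of the 32 tested genes in each library, in CPM on a log axis, with PTPRZ-Si (circles) drawn above PTPRZ-nc (squares) and genes grouped by role. Levels run from about 6.241 CPM for MPC1 in a PTPRZ-nc library to 3943 CPM for PKM in another, and most groups lie close together.

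The promoters of ENO1, ENO2, HK2 and LDHA are shown because the enolases moved in opposite directions, HK2 rose, and LDHA, with 3 matches, did not pass. Sequences are from RefSeq (GRCh38.p14), from 250 bases before to 50 bases after the start site, in the direction of transcription. Capitals mark ACGTG on either strand, a form of the core letters of the HIF response element. They also mark CACGTG, the E-box bound by MYC, which contains ACGTG and is counted within it. GCGTG, which also fits the HIF core, was not marked or counted, and the ENO1 window holds it. ENO1 is chr1:8878637-8878936 on the minus strand, ENO2 chr12:6914330-6914629, HK2 chr2:74833877-74834176 and LDHA chr11:18394313-18394612, all on the plus strand.
ENO1: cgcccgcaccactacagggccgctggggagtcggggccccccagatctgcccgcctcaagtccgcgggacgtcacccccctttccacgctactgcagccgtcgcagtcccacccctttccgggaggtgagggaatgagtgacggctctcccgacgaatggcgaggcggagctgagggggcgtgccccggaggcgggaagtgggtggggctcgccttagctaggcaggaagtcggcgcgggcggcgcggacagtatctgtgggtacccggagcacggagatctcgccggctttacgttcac
ENO2: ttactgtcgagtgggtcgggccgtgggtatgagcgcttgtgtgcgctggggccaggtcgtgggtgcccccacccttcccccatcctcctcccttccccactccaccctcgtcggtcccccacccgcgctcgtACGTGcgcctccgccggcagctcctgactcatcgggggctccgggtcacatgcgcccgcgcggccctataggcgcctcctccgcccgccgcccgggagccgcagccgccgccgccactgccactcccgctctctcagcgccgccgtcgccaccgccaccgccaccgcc
HK2: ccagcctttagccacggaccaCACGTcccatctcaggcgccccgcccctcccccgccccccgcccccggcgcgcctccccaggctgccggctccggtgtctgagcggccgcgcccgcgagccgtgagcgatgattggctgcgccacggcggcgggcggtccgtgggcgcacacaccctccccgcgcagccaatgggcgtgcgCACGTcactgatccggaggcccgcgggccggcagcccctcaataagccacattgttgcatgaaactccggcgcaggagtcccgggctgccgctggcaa
LDHA: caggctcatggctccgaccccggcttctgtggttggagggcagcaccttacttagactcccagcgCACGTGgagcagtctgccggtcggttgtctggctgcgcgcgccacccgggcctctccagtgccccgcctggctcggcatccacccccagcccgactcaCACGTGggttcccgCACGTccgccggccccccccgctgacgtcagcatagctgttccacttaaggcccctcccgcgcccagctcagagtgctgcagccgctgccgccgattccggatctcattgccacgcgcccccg
The ENO1 window holds 0 ACGTG sites, the ENO2 window 1 (first base at -118 from the start site), the HK2 window 2 (-229 and -48) and the LDHA window 3 (-185, -87 and -73), of which the first pair are CACGTG.

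Promoters were found for 31 of the 33 genes, and those of SLC16A1 and SLC2A3 are only named. ACGTG was present in 12 of the 31 (38.7%), against 21.4% of all 35116 promoters in the table and 26.5% of the 11060 promoters of tested genes. CACGTG was present in 5 of the 31 (16.1%), against 7.26% and 9.87%. By direction, 4 of 9 genes that rose, 2 of 4 that fell and 6 of 17 that did not pass held ACGTG. A match describes letters in this window and is not a binding site.

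To compare relatives within a library, the share of each gene in the summed counts per kilobase of its family was computed, a measure that does not depend on scaling between libraries. Of 13 shares in 11 families 7 did not overlap between groups. By a different measure, the CPM of single genes, groups did not overlap in 40.8% of all tested genes. The shares use the same counts as the gene tests above, so they are not separate evidence. With 3 libraries against 3, the smallest p of a 2-sided exact permutation test is 0.1. Each of these 7 reached it, and the exact permutation p adjusted over the 13 shares was 0.186, so none can pass at this size. ENO2 made up 0.9633, 0.9264 and 0.8898% of enolase in PTPRZ-Si and 1.563, 1.863 and 1.674% in PTPRZ-nc. HK2 made up 19.87 ± 0.189% of the HK1 and HK2 sum in PTPRZ-Si and 17.65 ± 0.433% in PTPRZ-nc (SD, n = 3 each). PFKL held 6.92 ± 0.142% of phosphofructokinase in PTPRZ-Si and 8.231 ± 0.155% in PTPRZ-nc, while PFKM held 11.45 ± 0.406% and 9.715 ± 0.225%. The share of PFKP overlapped between groups, at 81.63 ± 0.352% in PTPRZ-Si and 82.05 ± 0.355% in PTPRZ-nc.

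MPC1 was 29.82, 28.74 and 26.75% of the carrier's summed level in PTPRZ-Si and 22.04, 17.04 and 17.85% in PTPRZ-nc, a difference of 9.46 percentage points. LDHB was 8.461 ± 0.0784% of lactate dehydrogenase in PTPRZ-Si and 6.438 ± 1.08% in PTPRZ-nc (SD, n = 3 each), and PGM2 18.58 ± 1.09% and 22.52 ± 1.11% of PGM1 and PGM2. The groups were apart for each of these 3 shares. They overlapped for the shares of ALDOC, SLC16A1, SLC2A3, PYGL and PDHB. The ALDOC share rests on the low ALDOA count, which is not shown to be the level of ALDOA mRNA. The share of SLC2A3 in the SLC2A1 and SLC2A3 sum was 8.109 ± 0.245% in PTPRZ-Si and 7.91 ± 0.418% in PTPRZ-nc, a difference of 0.199 points.

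**Figure D3:**
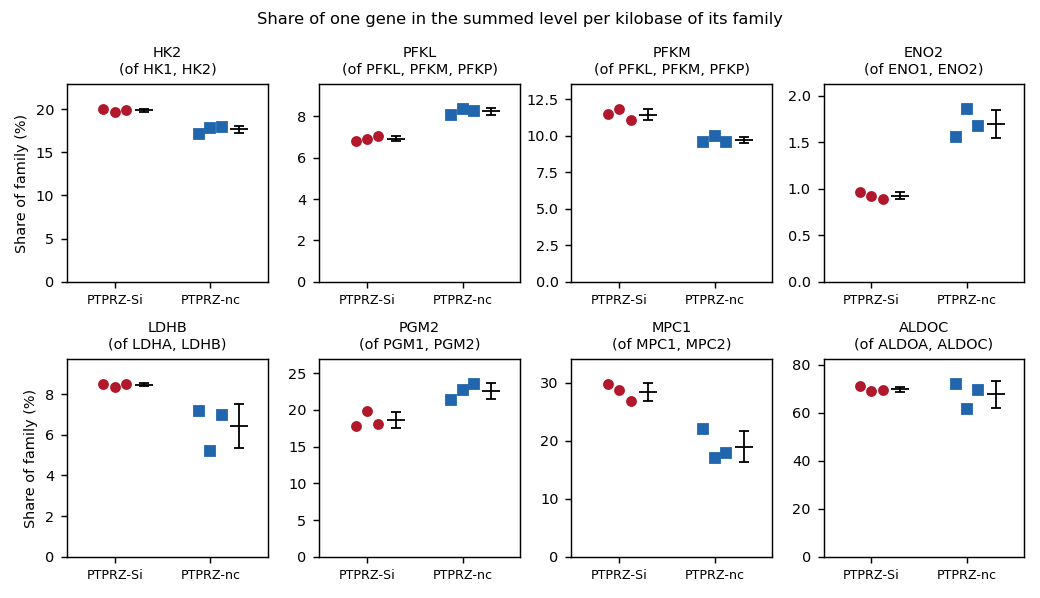
Share of the named gene in the summed level per kilobase of its family, in percent on axes that start at 0, for each PTPRZ-Si library (circles, left) and PTPRZ-nc library (squares, right), with mean and SD beside the points. The groups are apart in 7 panels and overlap for ALDOC, whose share rests on an uncertain ALDOA count.

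Other genes of the same pathways were taken from 7 lists. Of 97 listed genes 73 were tested, of which 18 rose, 9 fell and 46 did not pass. The share that passed, 37%, lies near the 35.4% of tested genes averaging 5 CPM or more and above the 27.4% of all tested genes, and it was not tested against them. Among regulators of the pyruvate dehydrogenase complex and its other parts, 3 of 11 rose, 0 fell and 8 did not pass. PDP2, a phosphatase that activates the complex, had 51.31, 53.28 and 48.84 CPM in PTPRZ-Si and 30.67, 32.15 and 33.5 CPM in PTPRZ-nc, a log2 fold change of 0.67 with an SE of 0.0667 (edgeR adjusted p = 9.78e-07). PDPR, a regulatory subunit described for the other phosphatase of the list, averaged 92.48 ± 4.93 CPM in PTPRZ-Si and 68.24 ± 2.83 CPM in PTPRZ-nc (0.44). PDK3, a kinase that inactivates the complex, averaged 23.99 ± 0.777 and 17.19 ± 1.74 CPM (0.48, with SD and n = 3 each for both genes). An activating phosphatase and an inactivating kinase thus both rose. The other phosphatase and the other kinases of the list were among the 8 genes that did not pass. PDPR has near-identical copies in the genome, so its count is uncertain. DLD, the dihydrolipoyl dehydrogenase subunit, did not pass (-0.04).

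Of 19 tested genes of glycogen regulation and breakdown (23 listed) 2 rose, 3 fell and 14 did not pass. GYG2, a glycogenin that primes glycogen chains, averaged 30 ± 2.86 CPM in PTPRZ-Si and 21.51 ± 1.32 CPM in PTPRZ-nc, a log2 fold change of 0.49 with an SE of 0.086 (edgeR adjusted p = 0.000413), and PHKA1, a subunit of phosphorylase kinase, rose by less (0.23, SE 0.0577). PPP1R3B, which brings protein phosphatase to glycogen, fell to 34.84 ± 3.72 CPM in PTPRZ-Si, against 48.84 ± 1.8 CPM in PTPRZ-nc (-0.49, SE 0.0753, edgeR adjusted p = 9.92e-05). PGM2L1, which makes glucose 1,6-bisphosphate, fell to 12.83 ± 0.822 CPM, against 19.92 ± 1.41 CPM (-0.63, SE 0.0965), and GAA, the lysosomal glucosidase, also fell (-0.20, SE 0.0471; SD, n = 3 each). PHKB, another subunit of phosphorylase kinase, did not pass (-0.06).

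Of 9 tested further glycolytic isoenzymes and phosphofructokinase regulators (19 listed) 0 rose, 1 fell and 8 did not pass. The gene that fell was ADPGK, the ADP-dependent glucokinase (log2 fold change -0.25, SE 0.0508, edgeR adjusted p = 0.00137). HKDC1, a hexokinase family member, stood at 316.7 ± 2.83 CPM in PTPRZ-Si and 320.6 ± 10.7 CPM in PTPRZ-nc (SD, n = 3 each) and did not pass (-0.02). In gluconeogenesis, 4 of 7 genes were tested. PCK2, the mitochondrial phosphoenolpyruvate carboxykinase, fell (-0.40, SE 0.0683, edgeR adjusted p = 0.000281). G6PC3, a glucose 6-phosphatase, rose (0.20, SE 0.0637, edgeR adjusted p = 0.0276), with a log2 fold change of 0.13 that did not pass without PTPRZ-nc replicate 2 (edgeR adjusted p = 0.0654), and it did not pass without PTPRZ-Si replicate 1, 2 or 3 or PTPRZ-nc replicate 3 (edgeR adjusted p = 0.0772 to 0.0947). SLC37A4, which carries glucose 6-phosphate into the endoplasmic reticulum, did not pass (0.06).

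In the pentose phosphate pathway, which draws glucose 6-phosphate off for NADPH and ribose, 4 of 7 tested genes rose and 0 fell. PGD, the phosphogluconate dehydrogenase, had 597.1, 623.9 and 587 CPM in PTPRZ-Si and 460.3, 462.1 and 460.2 CPM in PTPRZ-nc. All PTPRZ-Si libraries were higher, with a log2 fold change of 0.39 and an SE of 0.037 (edgeR adjusted p = 6.13e-07). TKT, transketolase, rose as well (0.24, SE 0.0482), and TALDO1, transaldolase, only narrowly (0.12, SE 0.0435, edgeR adjusted p = 0.0415). TALDO1 did not pass without PTPRZ-Si replicate 1, 2 or 3 or PTPRZ-nc replicate 1 or 3 (edgeR adjusted p = 0.0971 to 0.18) or without a TMM factor (edgeR adjusted p = 0.0519). PGLS, the lactonase of the pathway, did not pass (0.06).

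Among 8 tested regulators of glycolytic genes (9 listed) 3 rose, 3 fell and 2 did not pass. HIF1A, an oxygen-regulated subunit of HIF, had 534.2, 536 and 534.7 CPM in PTPRZ-Si and 363.4, 326.9 and 387.7 CPM in PTPRZ-nc. It was higher in every PTPRZ-Si library, with a log2 fold change of 0.57 with an SE of 0.0497 (edgeR adjusted p = 2.16e-07). EPAS1, which encodes HIF-2alpha, had 210.6, 207.2 and 217.5 CPM in PTPRZ-Si and 260.6, 251.7 and 263.3 CPM in PTPRZ-nc. It fell, with a log2 fold change of -0.29 with an SE of 0.0415 (edgeR adjusted p = 5.51e-05), so the HIF subunit genes moved in opposite directions.

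TXNIP, which lowers glucose uptake by removing GLUT1 from the cell surface and is induced by glucose metabolites, fell to 53.61, 49.35 and 49.4 CPM in PTPRZ-Si, against 95.5, 91.05 and 94.63 CPM in PTPRZ-nc. At 1.85-fold its log2 fold change of -0.89 with an SE of 0.0551 (edgeR adjusted p = 3.55e-09) was larger than that of any of the 32 listed genes. ARRDC4, its relative with a similar known regulation, went the other way (0.23, SE 0.0672, edgeR adjusted p = 0.015), and did not pass without PTPRZ-Si replicate 3 or PTPRZ-nc replicate 1 (edgeR adjusted p = 0.0818 and 0.0872). PPARGC1A, a coactivator of mitochondrial genes, rose at a low level, with 3.305 ± 0.271 CPM in PTPRZ-Si and 1.19 ± 0.498 CPM in PTPRZ-nc (1.46, SE 0.279, edgeR adjusted p = 0.000827). ARNT, the partner of both HIF subunits, was called lower at the edge of the threshold (-0.22, SE 0.0786, edgeR adjusted p = 0.0495), and lost the call under 8 of the 12 alternatives. These were DESeq2 (adjusted p = 0.0812), limma-voom (adjusted p = 0.0556), a replicate block (edgeR adjusted p = 0.0595) and leaving out PTPRZ-Si replicate 1 or 2 or PTPRZ-nc replicate 1, 2 or 3 (edgeR adjusted p = 0.178, 0.146, 0.118, 0.0891 and, just above the threshold, 0.05). MYC averaged 145.4 ± 5.31 CPM in PTPRZ-Si and 155.8 ± 14.7 CPM in PTPRZ-nc (SD, n = 3 each) and did not pass (-0.10), except without PTPRZ-nc replicate 2 (-0.18, edgeR adjusted p = 0.00326). MLXIP, a glucose-sensing transcription factor that activates TXNIP, did not pass (-0.01).

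**Figure D4:**
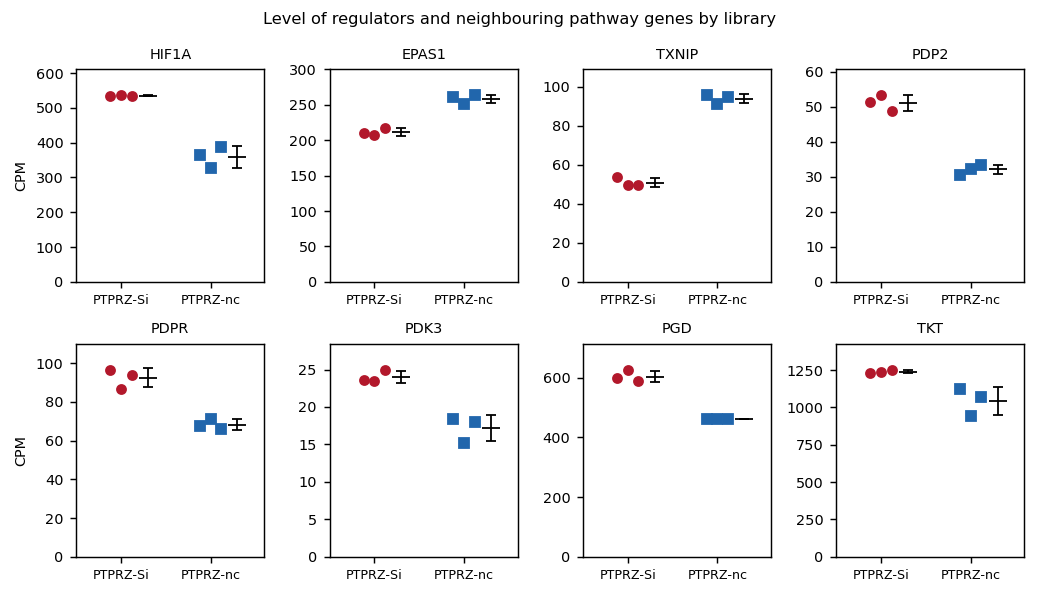
Level in CPM of 8 regulators and neighbouring genes, on axes that start at 0, for each PTPRZ-Si library (circles, left) and PTPRZ-nc library (squares, right), with mean and SD beside the points. EPAS1 and TXNIP are lower in all 3 PTPRZ-Si libraries and the other 6 genes higher.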

How the data were processed

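RNA of 6 A498 libraries, 3 PTPRZ-Si and 3 PTPRZ-nc, was sequenced. The authors deposited raw counts of read pairs per gene. They come from featureCounts 2.0.1, per the file headers, run in paired mode over exons of the Ensembl GRCh38 release 107 annotation with no strand option, while the library kit is a directional one per the labels' protocols. The build is hg38 per the submitters' processing notes. Groups and replicate numbers came from the labels. Symbols came from a gene name table, and coordinates, exon lengths and overlaps from GENCODE 29 (GRCh38). The exon length of a gene is the union of its annotated exons over all transcripts, which can exceed the length of its main mRNA.

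Genes passing filterByExpr (15476, with 99.82% of counts) were scaled by TMM and compared with glmQLFit and glmQLFTest of edgeR 4.0.16 in R 4.3.3, 2-sided, with Benjamini-Hochberg adjustment over all tested genes and a threshold of 0.05. The SE is the size of the log2 fold change divided by the square root of the F statistic. The biological coefficient of variation estimated by edgeR was 5.53%. The fit was also run on data simulated with this same coefficient for every gene. All changes planted there were larger than the median change of the listed genes that passed. The simulation thus does not cover changes smaller than those planted. Shares were compared with exact permutation tests (scipy 1.17.1). Alternatives were DESeq2 1.42.0, limma-voom (limma 3.58.1), other scalings, no filter, a replicate block and leaving out each library. Within groups, pairs of libraries gave a chi-square of 2.19 to 6.23 for each degree of freedom, above sampling noise, and all 6 were kept.

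The listed genes and the further lists were chosen with earlier results of these data known. All 33 were named. Of each further list, the genes that passed were named, at most 4 per direction by lowest p, and the most abundant gene that did not pass, with HIF1A, EPAS1, MYC and TXNIP always. A gene that this rule names is not reported here.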

Additional observations from a re-analysis of the deposited data

How the results depend on the processing

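With 1 library left out in turn, 6 to 9 of the listed genes rose (9 with all libraries) and 4 to 7 fell (5 with all), among all genes 1633 to 2264 rose (2164 with all) and 1530 to 2161 fell (2079 with all), and 12 to 16 further pathway genes rose (18 with all) and 7 to 9 fell (9 with all). Scaling by total counts with no TMM factor gave 8 listed genes that fell; every other count stayed within 1.5 times of its main value under the alternatives run. SLC16A1, PFKP and PYGL passed as lower without the TMM factor, a scaling that moved the median of all genes by -0.0114 on the log2 scale. No listed gene that passed changed direction under these alternatives. Values near 0 that did not pass changed sign when 1 library was left out: ALDOA, TPI1, PGAM1, LDHA, DLD, HKDC1, MLXIP and SLC37A4 ran down to -0.006916, -0.006045, -0.0209, -0.01363, -0.08052, -0.04419, -0.04071 and -0.05646 and up to 0.199, 0.08022, 0.007219, 0.05141, 0.008607, 0.003529, 0.007881 and 0.1632.

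Replicates of the same number deviated together only weakly (correlations of 0.0271, 0.0333 and 0.0226 for numbers 1, 2 and 3). Pairs of different numbers gave -0.0234 to -0.00517. Deviations were taken from each group's own mean of 3 libraries, so these values cannot decide whether replicates of the same number share a batch. The labels do not say. With a replicate block 9 listed genes rose and 5 fell, 18 rose and 8 fell among the further genes, and 2123 rose and 1978 fell among all genes. Of the genes named here, ARNT alone changed its call under the block (edgeR adjusted p = 0.0595).

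Without length correction, the PTPRZ-Si minus PTPRZ-nc differences in share were -2.14 points for PFKL, 2.38 for PFKM, -0.631 for ENO2, 1.05 for LDHB and 6.97 for MPC1, against -1.31, 1.73, -0.773, 2.02 and 9.46 with it. Leaving out 1 library gave -0.972 to 4.41 points for ALDOC, -0.0238 to 0.39 for SLC2A3 and -0.847 to 0.112 for PYGL. Depth limits FBP1 most, with 3 counts over all libraries.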

Other observations

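Of 15 tested genes of other sugar and monocarboxylate transport (19 listed) 5 rose, 1 fell and 9 did not pass. SLC16A7, which encodes the high-affinity monocarboxylate carrier MCT2, averaged 40.06 ± 1.97 CPM in PTPRZ-Si and 31.58 ± 1.59 CPM in PTPRZ-nc (SD, n = 3 each), which gave a log2 fold change of 0.34 with an SE of 0.0701 (edgeR adjusted p = 0.00137). SLC2A5, the fructose carrier, stood at 3.833 ± 0.665 CPM in PTPRZ-Si and 2.27 ± 0.118 CPM in PTPRZ-nc (0.77), and the glucose carriers SLC2A12 and SLC2A6 rose as well (0.62 and 0.24).

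BSG, basigin, the chaperone that brings SLC16A1 and SLC16A3 to the cell surface, had 635.7, 632.7 and 638.9 CPM in PTPRZ-Si and 613, 531.6 and 596.5 CPM in PTPRZ-nc (log2 fold change 0.13, edgeR adjusted p = 0.0415). It did not pass without PTPRZ-Si replicate 1, 2 or 3 (edgeR adjusted p = 0.133, 0.0972 and 0.131), without PTPRZ-nc replicate 2 (0.07, edgeR adjusted p = 0.0934) or without a TMM factor (edgeR adjusted p = 0.0657), and it was named after its values were seen. SLC16A8, a lactate carrier of the retinal pigment epithelium, fell at a low level, with 0.6662 ± 0.115 CPM in PTPRZ-Si and 1.536 ± 0.639 CPM in PTPRZ-nc (-1.16, edgeR adjusted p = 0.0349). SLC2A5 did not pass without PTPRZ-Si replicate 2 or 3, SLC2A12 without PTPRZ-Si replicate 1, SLC2A6 without any single library but PTPRZ-nc replicate 2, and SLC16A8 without any single library but PTPRZ-nc replicate 3 or in DESeq2 and limma-voom (adjusted p = 0.0534 and 0.0668). SLC16A4, a carrier of the same family with little known about its substrates, did not pass (-0.06).

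TPI1 has 4 pseudogenes by name in GENCODE 29, which had 803 counts over the 6 libraries against 67864 for TPI1 itself.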
